A study of Ictidomys tridecemlineatus with 15 samples.

Results

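Nascent transcription in the liver of summer active 13-lined ground squirrels (SA) was compared with that of every winter hibernation state sampled, to find changes that held in each of the 4 winter states whatever the body temperature of the animal. The comparison took the 3 SA libraries against the 11 winter libraries that have counts, which are 14 of the 15 libraries of the series; LT replicate 2, which the authors removed, was not analysed here. All animals were females of a purchased colony that carried implanted temperature telemeters, and each library came from the liver of a separate animal. SA squirrels were homeothermic, fed, and kept in a warm room with light. Winter squirrels were kept without food in a cold, dark hibernaculum and were sampled between torpor bouts at a high body temperature (interbout aroused, IBA, n = 3), while cooling into torpor (entrance, Ent, n = 3), and at low body temperature early (ET, n = 3) and late (LT, n = 2) in a torpor bout. Season, food, light and room temperature therefore changed together between SA and winter and cannot be told apart.

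In global run-on sequencing (GRO-seq), polymerases caught on their genes are allowed to extend their RNA chains in isolated nuclei, and the labelled extensions are sequenced. The counts thus measure polymerases engaged on a gene rather than the amount of RNA in the cell. For torpor, the paper proposes that polymerases neither start nor stop on genes but still move slowly, at times past gene ends. What part this had in the ET and LT values was not tested here. A liver preparing for winter turns dietary carbohydrate into fatty acids and stores them as triglyceride, and a fasting liver instead oxidizes fatty acids and makes glucose and ketone bodies. Fatty acid and cholesterol synthesis share a transcriptional control, the SREBP proteins, which SCAP escorts out of the endoplasmic reticulum and INSIG1 retains there.

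The unit of measurement was the redefined gene body of the HiC_Itri_2 genome, with the counts given as CPM of the TMM-normalized library size. Of 6324 units, the 4705 that carry a single gene name are counted below. A unit was called at an adjusted p of 0.05 or less in edgeR, and a change held when a unit was called in the same direction in IBA, Ent, ET and LT, each against SA. The mean winter change gave the 4 states equal weight. The 4 comparisons share the 3 SA libraries, so that an unusual SA liver enters all of them, and a unit's agreement across them is not independent evidence. Since CPM are relative to the library, a change in the total transcription of the nucleus is not seen.

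Libraries held 3713883 to 8884763 counts. Over all units, Spearman correlations between SA livers were 0.912 to 0.948, and those between IBA livers 0.962 to 0.977. The units that held were selected on these same libraries, so their spread is given as a description. Among them, the highest SA value was a median of 1.54 times the lowest in units higher in winter and 1.70 times in units lower in winter. In IBA these ratios were 1.19 and 1.34. For 10 of the lower units the highest SA liver was 4 times the lowest or more. SA replicate 1 was collected in the first of the study's seasons together with LT and with Ent replicates 1 and 2, SA replicates 2 and 3 in the third together with IBA and Ent replicate 3, and ET was collected alone in the second. The hepatocyte markers with a unit of their own (Apob, Ttr, Fgb, Hnf4a and Cps1, 5 of 8 listed) summed to 8809 to 19820 CPM in SA and 3514 to 12720 in winter. Of the 5, 4 were called lower in the mean winter change, against 24.3% of all single-gene units. Cps1 alone had 2643 to 13660 CPM in SA and 433 to 4060 in winter, a varying part of these sums. The endothelial markers (Kdr, Stab1 and Pecam1, 3 of 10) summed to 186 to 241 CPM in SA and 124 to 241 in winter with none called. Sox9, the 1 cholangiocyte marker of 7, had 25.9 to 41.0 CPM in SA and 7.07 to 46.1 in winter. It was called lower in the mean winter change but did not hold in every winter state. Markers of macrophages, stellate cells, lymphocytes, neutrophils and erythroid cells had no unit of their own, so their part in the results was not tested. In whole liver, fewer cells of a type and less transcription per cell cannot be told apart.

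A change that held in every winter state was found for 106 single-gene units (2.25%), of which 34 were higher in winter (0.723%) and 72 lower (1.53%). The states alone called far more: IBA 127 higher (2.7%) and 135 lower (2.87%), together 5.57%, Ent 567 (12.1%) and 595 (12.6%), together 24.7%, ET 1203 (25.6%) and 1323 (28.1%), together 53.7%, and LT 1093 (23.2%) and 1243 (26.4%), together 49.6%. The number called in IBA, the winter state with the body temperature most like that of SA, bounded the number that could hold. Of the 262 units called in IBA, 40.5% held in all 4 states, whereas 4.2% of those called in ET did. The most frequent combinations outside this set were ET and LT together without IBA or Ent (595 higher and 612 lower) and Ent, ET and LT without IBA (338 higher and 392 lower). With the 4 winter states at equal weight, the mean winter change was called for 988 units higher (21%) and 1141 lower (24.3%), together 45.2%, and 59 units were called higher in one winter state and lower in another. DESeq2 in place of edgeR called 542 units in IBA and 180 in all 4 states (51 higher and 129 lower), among them all 106. The count that held fell to 46 without IBA replicate 3 and to 60 without IBA replicate 1, and was 73 to 134 without any 1 of the other 12 libraries. Scaled to uniquely mapped reads in place of TMM, the median change of all single-gene units moved from -0.01 to 0.14 and the mean winter change split into 1401 higher and 825 lower, Ent into 921 and 393, ET into 1767 and 918, and LT into 1428 and 927, while 48 higher and 70 lower units held, 97 of them among the 106. With the season of collection as a term, which leaves out ET, 76 of the 106 held, and Acss2, Insig1, Scap, CYP7A1, CYP8B1, Thsd7b, Krt18, Hadh, Ears2 and Mrpl48 were among the 30 that did not. At an adjusted p of 0.001, no unit held in all 4 states in edgeR, with 1 unit called in IBA, although 98 of the 106 (27 higher and 71 lower) had a mean winter change below that threshold, as had 11.6% of all single-gene units (4.21% higher and 7.35% lower). At an unadjusted p of 0.05 or less, 1103 single-gene units differed in IBA.

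**Figure D1:**
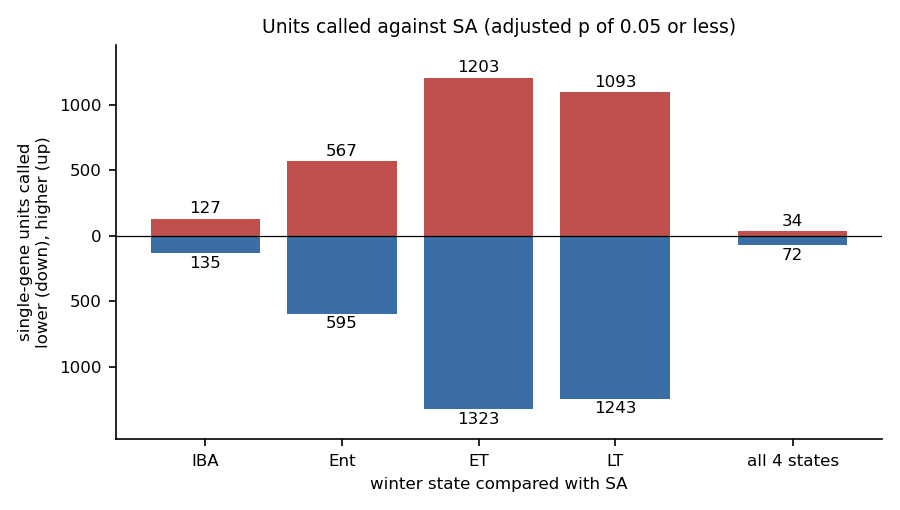
Number of single-gene units called against SA in each winter state (edgeR, adjusted p of 0.05 or less), with units higher in winter drawn upward and units lower in winter drawn downward. The last bar counts units called in the same direction in all 4 states, 34 higher and 72 lower, against 127 and 135 in IBA and 1203 and 1323 in ET.

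The units that held were selected on the same values that follow, which are given as a description. In 96 of the 106, none of the 3 SA values overlapped with any of the 11 winter values (32 of 34 higher and 64 of 72 lower), against 346 of all 4705 units (7.35%, of which 3.12% higher and 4.23% lower). The 72 lower units had a median log2 fold change of -1.52 in IBA, -1.57 in Ent, -1.91 in ET and -2.22 in LT, and the 34 higher units 1.07, 1.20, 1.07 and 1.19. The median over all single-gene units was between -0.06 and -0.01 in each state. A change of 2-fold or more in each of the 4 states was reached by 14 higher (0.298%) and 46 lower (0.978%) units. The size of the change differed among the winter states in 42 of the 106 (F test among IBA, Ent, ET and LT, adjusted p of 0.05 or less), 12 higher and 30 lower, which is 39.6% against 54.5% of all single-gene units. In 16 higher and 16 lower units, the 4 log2 fold changes lay within 0.5 of each other. The same was true of 1363 of all 4705 single-gene units, a similar share. The median range of the 4 changes was 0.72 in the 106 and 0.76 in all single-gene units. The weakest of the 4 changes was that of IBA in 49 units, of ET in 27, of Ent in 17 and of LT in 13. Over all 4705 single-gene units, it was that of IBA in 2362, of ET in 597, of Ent in 1202 and of LT in 544. Within the first collection season and within the third, where SA and winter animals can be compared without ET, all 106 had the direction of the whole comparison. These are the same libraries on which the units were selected, and the first season has 1 SA liver. Over all 4705 single-gene units, 4067 had that direction in the first season and 3333 in the third. Of units called in the mean winter change, 986 of 988 higher and 1122 of 1141 lower had it in the first. In the third these were 837 and 924.

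**Figure D2:**
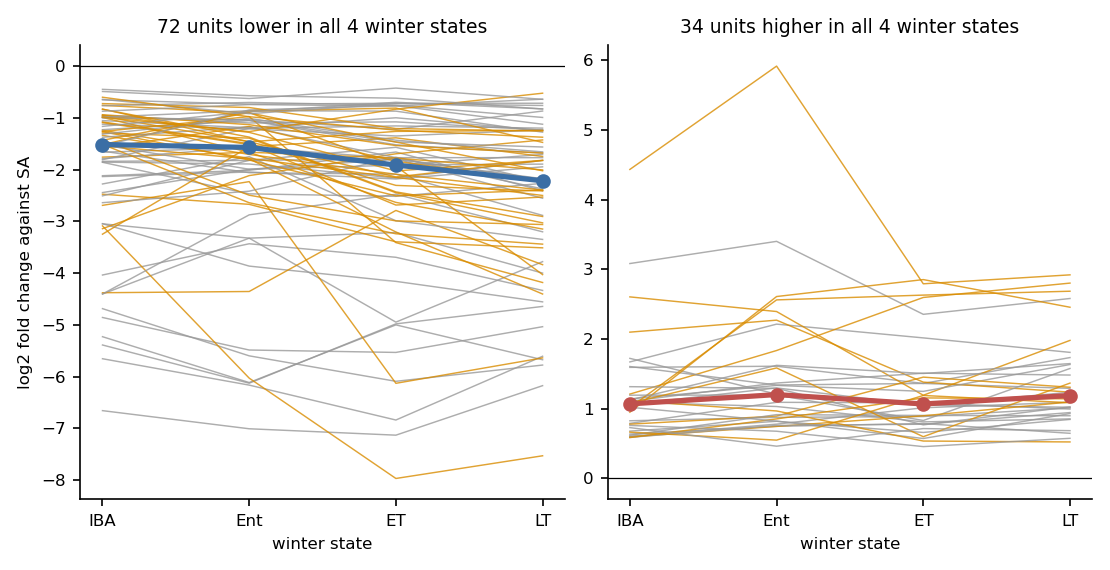
Log2 fold change against SA in each winter state for the 72 units lower and the 34 units higher in all 4 states, with a thin line per unit and a thick line for the median. Lines in orange are the 30 lower and 12 higher units whose winter states differed from each other, and the median of the lower units went from -1.52 in IBA to -2.22 in LT.

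**Figure D3:**
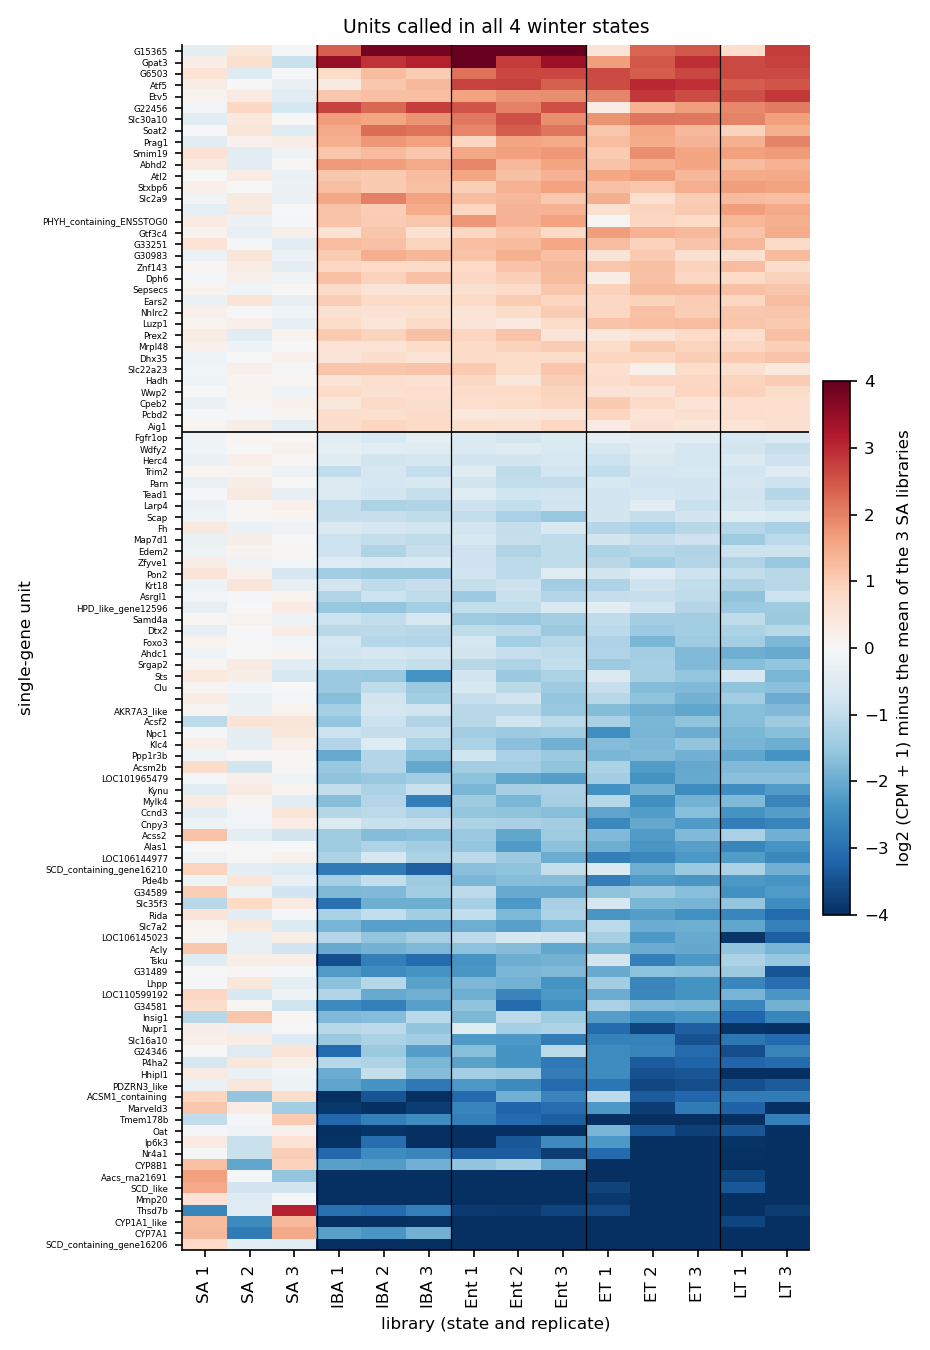
Each row is 1 of the 106 single-gene units and each column 1 library, colored by log2 (CPM + 1) minus the mean of the 3 SA libraries, with the 34 higher units above the line. Colors stop at 4 in either direction, and some rows carry no name. The winter columns keep 1 color in nearly every row, and the SA columns differ most among themselves in some of the lower units.

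Per length, the lower units were above the median of all units in summer and below it in winter. These levels come from the same counts on which the units were selected and are given as a description. Their median was 4.64 CPM per kilobase in SA and 1.25 in winter, whereas that of the higher units was 0.812 in SA and 2.57 in winter, against 2.12 and 2.15 over all single-gene units. Median unit length was 36166 nt for the lower, 61620.5 nt for the higher and 36217 nt for all single-gene units.

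Fatty acid synthesis was the list with the most units that held. Of its 16 units, 6 were lower in every winter state and 13 were lower in the mean winter change, with none higher. Over all single-gene units, 1.53% were lower and 0.723% higher in every winter state. In the mean winter change, 24.3% of all single-gene units were lower and 21% higher. The counts of each list below stand beside these shares. Stearoyl-CoA desaturase, which puts the first double bond into newly made saturated fatty acids, is annotated as 3 neighbouring units on chromosome Itri1, and all 3 held. SCD_containing_gene16206 (Itri1:33657946-33672214, plus strand) had 1465, 643 and 621 CPM in the 3 SA livers and 2.36 to 22.2 CPM with a median of 6.54 in the 11 winter livers. The lowest SA liver was thus far above the highest winter liver. Its log2 fold change was -6.66 in IBA, -7.01 in Ent, -7.13 in ET and -6.18 in LT, a mean winter level 107-fold lower (-6.74 ± 0.50 SE, adjusted p = 5.69e-06), and the winter states did not pass the test of a difference among them (adjusted p = 0.705). SCD_like (Itri1:33733397-33745897, minus strand) fell from 515, 106 and 109 CPM to between 1.06 and 16.3, and SCD_containing_gene16210 (Itri1:33793710-33806869, plus strand) from 134, 53.9 and 49.8 to between 6.39 and 47.7. These units are named for the same enzyme, and if they are near copies, how reads that fit more than one of them were shared out is uncertain. SCD_containing_gene16210 lost its call in every state without SA replicate 1, Ent replicate 1 or 2, ET replicate 2 or 3, or LT replicate 3, whereas the other two SCD units kept it without any 1 library.

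The enzymes that supply activated acetyl units for lipid synthesis were lower in every state too. Acly, ATP citrate lyase, which makes cytosolic acetyl-CoA from citrate, had 613, 234 and 169.7 CPM in SA and 67.3 to 96.1 CPM with a median of 79.5 in winter. The 11 winter livers stayed within a narrow range while the SA livers were spread. Its log2 fold change was -2.13 in IBA, -2.05 in Ent, -2.18 in ET and -1.95 in LT, with -2.08 ± 0.25 SE, adjusted p = 8.59e-05 for the mean winter change, and the winter states did not pass the edgeR F test of a difference (adjusted p = 0.945). Acss2, which makes acetyl-CoA from acetate, went from 776, 268 and 210.3 CPM to between 73.1 and 144, a mean winter change of -1.93 ± 0.29 SE, adjusted p = 0.000276. Without any 1 of the 3 IBA libraries, or without LT replicate 3, Acss2 was no longer called in all 4 states. The unit Aacs_rna21691, acetoacetyl-CoA synthetase, which activates the ketone body acetoacetate for lipid synthesis, had 520.4, 160.1 and 54.4 CPM in SA and 2.82 to 11.8 CPM with a median of 6.82 in winter, 37.5-fold lower (-5.23 ± 0.48 SE, adjusted p = 1.45e-05). In Acly, Acss2, Aacs_rna21691 and the SCD units the highest SA value was that of replicate 1.

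Other genes of the list did not hold in every state. Fasn, the fatty acid synthase, had 940.5, 665 and 506 CPM in SA, 83.5, 169.5 and 119 in IBA, 400.4, 227 and 147 in Ent, 629, 417 and 377 in ET and 431 and 500.2 in LT. IBA was lowest, and ET replicate 1 was within the SA range. Fasn fell in the mean winter change (-1.28 ± 0.27 SE, adjusted p = 0.00244) but not in every state, and its change differed among the winter states (adjusted p = 0.00325). Acaca, the acetyl-CoA carboxylase that commits carbon to fatty acid synthesis, followed with -0.83 ± 0.24 SE, adjusted p = 0.0135, from 2174, 1281 and 761 CPM in SA to between 422 and 1211 in winter. Its paralog Acacb was called in IBA (-2.69, adjusted p = 0.0175) and had -1.03 in ET (adjusted p = 0.13). Fads2, a desaturase of polyunsaturated fatty acids, and Thrsp, a lipogenic regulator, had the reverse order, with -0.27 and -0.25 in IBA and -2.02 and -2.42 in ET. Srebf1, which encodes SREBP1, had 193 to 446 CPM in SA and 106 to 867 in winter, and its mean winter change of 0.41 did not pass (adjusted p = 0.4). Elovl6, the elongase that acts beside the desaturase, is merged with a U6 RNA gene. That unit had 5745, 694 and 315 CPM in SA and 192 to 576 in winter, and held as lower. The groups overlapped, since SA replicate 3 was within the winter range, and SA replicate 1 was far above the rest.

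Cholesterol synthesis and uptake had 10 units, of which 2 were lower in every winter state and 7 in the mean winter change, again with none higher. Insig1 fell from 116, 534 and 262 CPM in SA to between 27.4 and 120.3 CPM, with a median of 72.6, in winter, with log2 fold changes of -1.76 in IBA, -1.67 in Ent, -2.63 in ET and -3.15 in LT. The lowest SA liver was within the IBA and Ent range, and the call in every state was lost without any 1 IBA library, SA replicate 2 or Ent replicate 1 or 3. Scap (Itri2:201575575-201630722, minus strand) moved less but with less spread, from 96.2, 112 and 115 CPM to between 36.9 and 77.1 (-0.90 ± 0.11 SE, adjusted p = 8.72e-05), and lost its call in every state without SA replicate 3 or either LT library. Hmgcs1 (-1.51, adjusted p = 0.00177) and Sc5d (-1.07, adjusted p = 4.21e-05), enzymes of cholesterol synthesis, were lower in the mean winter change. Npc1, which exports cholesterol from lysosomes and was not on the list, was lower in every state, from 217, 177 and 317 CPM to between 41.2 and 127, a call lost without IBA replicate 2 or 3.

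Opposite to these, Soat2, which esterifies cholesterol with a fatty acid for storage or lipoproteins, was higher in every winter state. It had 9.64, 13.5 and 6.42 CPM in SA, 29.0, 48.1 and 46.3 in IBA, 39.7, 55.2 and 44.6 in Ent, 21.4, 29.5 and 24.6 in ET and 18.4 and 26.9 in LT. Every winter liver was above every SA liver, and the rise was larger in IBA and Ent than in ET and LT (log2 fold change 2.10 in IBA, 2.27 in Ent, 1.38 in ET and 1.24 in LT, test among winter states adjusted p = 0.0196). The call in every state was lost without LT replicate 3.

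CYP7A1 and CYP8B1, enzymes of bile acid synthesis from cholesterol, were among the lowest in winter, with large differences between SA livers. CYP7A1, the rate-limiting 7-alpha-hydroxylase, had 136, 7.15 and 158 CPM in SA, 11.4, 10.2 and 13.7 in IBA, 1.98, 1.21 and 1.33 in Ent, 0.883, 0 and 0.16 in ET and 1.06 and 0 in LT. SA replicate 2 was below the 3 IBA livers, so the groups overlapped. The log2 fold change was -3.09 in IBA, -6.03 in Ent, -7.97 in ET and -7.53 in LT and differed among the winter states (adjusted p = 0.00557). CYP8B1, which directs the pathway to cholic acid, had 209, 21.2 and 174 CPM in SA and 19.9, 19.0 and 23.6 in IBA, 30.4, 35.2 and 20.6 in Ent, 1.91, 0.982 and 2.71 in ET and 3.33 and 2.06 in LT, with a log2 fold change of -2.69 in IBA, -2.23 in Ent, -6.13 in ET and -5.64 in LT. The low SA value came from replicate 2 again. The calls in every state were lost for both genes without SA replicate 1, SA replicate 3, Ent replicate 3 or any 1 IBA library, and for CYP7A1 also without Ent replicate 1, Ent replicate 2 or ET replicate 3, so that CYP7A1 held in 5 of the 14 fits that each left out 1 library. Of the 18 units of bile acid synthesis and export, CYP7A1 and CYP8B1 alone held, 9 were lower and 2 higher in the mean winter change, and the list's median was 0.04 in IBA and -0.51 in the mean. Slc10a1, the bile acid uptake transporter, was at -0.24 in IBA and -2.54 in LT.

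**Figure D4:**
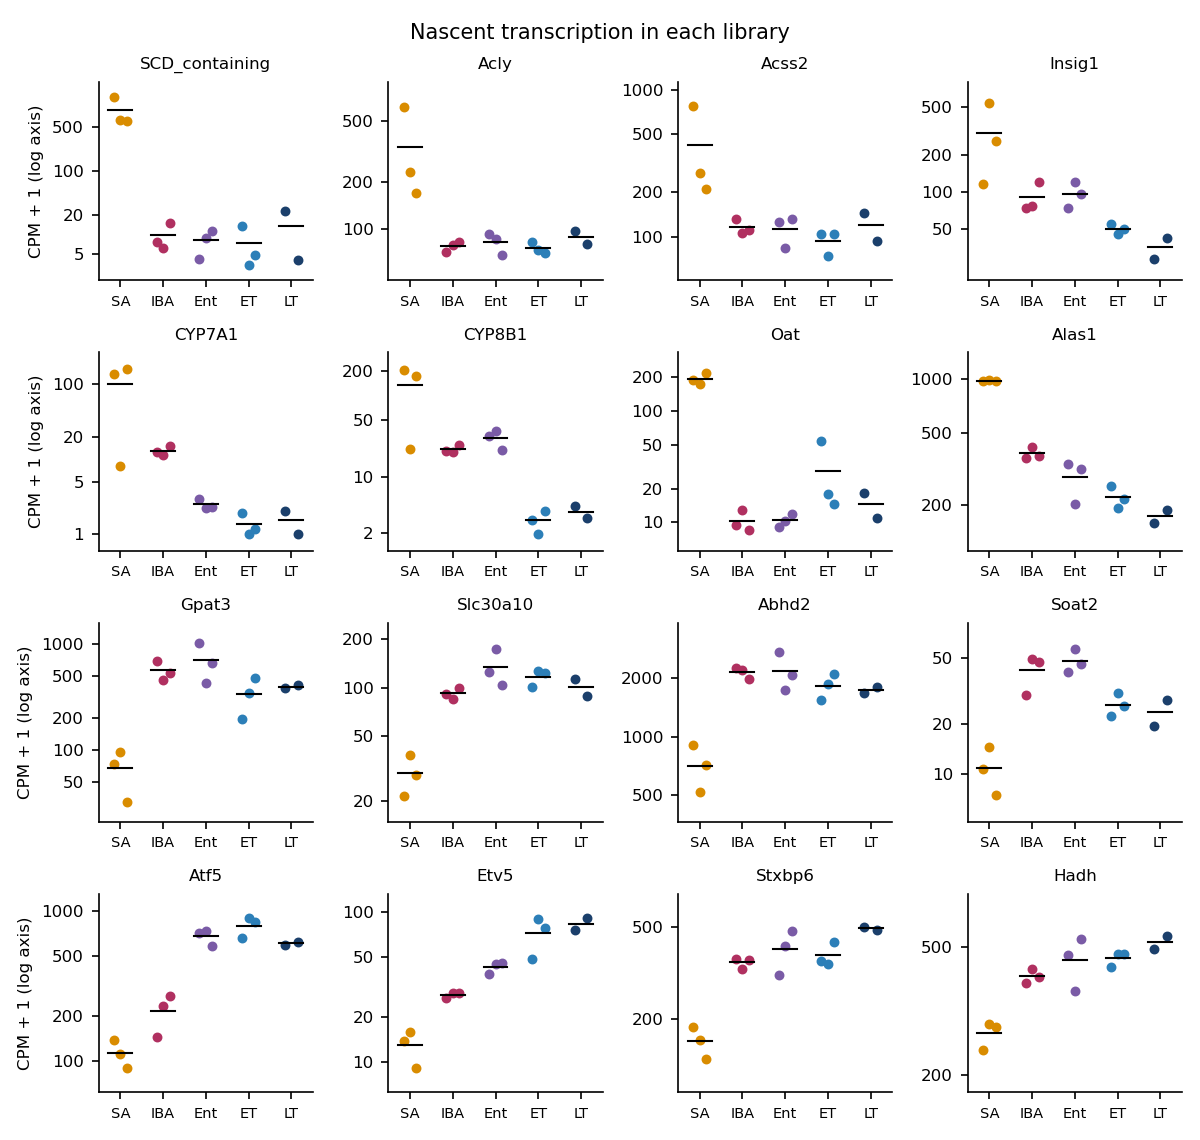
CPM + 1 on a log axis for 16 genes, with a point per library and a bar at the mean of each state (SA, IBA, Ent and ET n = 3, LT n = 2). The upper 2 rows show 8 genes lower in every winter state and the lower 2 rows 8 genes higher in every winter state. In CYP7A1 and CYP8B1, 1 of the 3 SA points lies among or below the IBA points, whereas the SA points of Oat and Alas1 lie close together.

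Genes of amino acid catabolism were lower in every winter state at several steps. The list of urea cycle and amino acid genes had 38 units, of which 5 were lower in every winter state, 22 lower and 3 higher in the mean winter change. Oat, ornithine aminotransferase, which links ornithine with glutamate and proline, had 188, 175 and 219 CPM in SA and 7.5 to 53.0 CPM with a median of 10.8 in winter. The SA livers were close together, and the highest winter liver, ET replicate 1, was far below them. The log2 fold change was -4.38 in IBA, -4.36 in Ent, -2.79 in ET and -3.84 in LT, 14.3-fold lower on average (-3.84 ± 0.29 SE, adjusted p = 5.69e-06), and the call held without any 1 of the 14 libraries. Slc7a2, a carrier of cationic amino acids such as arginine and ornithine, fell from 2153, 2647 and 1350 to between 306 and 942 CPM (-2.05 ± 0.21 SE, adjusted p = 2.72e-05). Kynu, kynureninase of tryptophan breakdown, fell from 698, 1180 and 1038 to between 166 and 509 CPM and fell further in the cold states (-1.08 in IBA, -1.50 in Ent, -2.31 in ET and -2.41 in LT). HPD_like_gene12596, named for the dioxygenase of tyrosine breakdown, fell from 556, 698 and 868 to between 230.1 and 506 CPM. The call of Kynu in every state was lost without any 1 IBA library. Outside the list, Slc16a10, a transporter of aromatic amino acids, fell from 493, 527 and 296 to between 37.2 and 178 CPM (-2.49 ± 0.17 SE, adjusted p = 5.69e-06).

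Cps1 and Ass1 of the urea cycle did not hold. Cps1, the first enzyme of the cycle, had 6054, 13660 and 2643 CPM in SA, 4060, 1957 and 2702 in IBA, 2080, 1122 and 2377 in Ent, 1445, 433 and 1390 in ET and 1418 and 673 in LT. Its mean winter change was -2.24 ± 0.42 SE, adjusted p = 0.00117, while IBA overlapped with SA (-1.36, adjusted p = 0.197). Ass1 was lowest in IBA (-3.42) and did not pass in ET (-0.92, adjusted p = 0.277). Tat, tyrosine aminotransferase, was at -1.04 in IBA (adjusted p = 0.165) and -4.03 in ET.

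Of 23 units of glucose, glycolysis and glycogen metabolism, 1 held and 11 were lower and 2 higher in the mean winter change. Ppp1r3b, the liver subunit that brings protein phosphatase 1 to glycogen, had 886, 1004 and 1035 CPM in SA and 184 to 559 CPM with a median of 288 in winter. Its log2 fold change was -1.58 in IBA, -1.17 in Ent, -1.84 in ET and -2.23 in LT, and -1.71 ± 0.16 SE, adjusted p = 1.4e-05 for the mean. The SA livers agreed closely, and the call held without any 1 library. Glycogen synthase Gys2 was at -0.42 in IBA (adjusted p = 0.431) and -3.76 in ET, and so did not hold. G6pc, which releases glucose from the liver, fell on average (-1.59 ± 0.32 SE, adjusted p = 0.00208) with IBA at 0.29 and LT at -3.33. Pck1, the entry enzyme of gluconeogenesis, had 1124, 584 and 1414 CPM in SA and did not pass on average (-0.82, adjusted p = 0.0536). Pdk4, the kinase that shuts pyruvate out of oxidation in fasting, went from 175, 229.9 and 201 CPM in SA to between 16.5 and 328 in winter (-1.38 ± 0.47 SE, adjusted p = 0.0295), and Ent replicate 3 was the highest of all 14 libraries.

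Among signalling genes, Foxo3 and Nr4a1 were lower in every winter state. Foxo3, a transcription factor that insulin signalling keeps out of the nucleus, had 1838, 1660 and 1540 CPM in SA and 476 to 1037 CPM with a median of 716 in winter (-1.27 ± 0.16 SE, adjusted p = 0.000109), and lost its call in every state without IBA replicate 2 or 3. It was the 1 unit of 15 on the insulin, IGF and growth hormone list that held, with 7 lower and 2 higher in the mean winter change. Nr4a1, an orphan nuclear receptor of the immediate early class, had 79.5, 44.8 and 170.5 CPM in SA and 3.14 to 14 CPM with a median of 7.52 in winter, a log2 fold change of -3.05 in IBA, -3.87 in Ent, -4.16 in ET and -4.56 in LT, and held without any 1 library. It was the 1 of 19 immediate early and stress units that held, with 10 lower and 2 higher in the mean winter change. Pde4b, a cyclic AMP phosphodiesterase on no list, fell from 171, 270.4 and 158 to between 27.98 and 99.5 CPM (-2.0 ± 0.15 SE, adjusted p = 5.69e-06), and so did the cyclin gene Ccnd3, from 68.5, 82.2 and 124 to between 16.2 and 41.8 CPM (-1.86 ± 0.16 SE, adjusted p = 1.01e-05).

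In heme and drug metabolism, Alas1, the rate-limiting enzyme of heme synthesis in liver, had 978, 986 and 971 CPM in SA, 366, 419 and 376 in IBA, 336, 203 and 314 in Ent, 253, 193 and 214 in ET and 158 and 188 in LT. The SA livers were almost equal, and no winter liver came near them. The log2 fold change was -1.34 in IBA, -1.78 in Ent, -2.15 in ET and -2.50 in LT, with -1.94 ± 0.13 SE, adjusted p = 5.53e-06 for the mean, and the states differed (adjusted p = 0.00139). CYP1A1_like, named for an aryl hydrocarbon receptor target, had 155, 9.9 and 155 CPM in SA and 0 to 4.08 in winter (-6.07 ± 0.66 SE, adjusted p = 4.22e-05). SA replicate 2 was far below the other SA livers, and the call was lost without IBA replicate 1. Of the 35 units of drug metabolism, CYP1A1_like alone held, 20 were lower in the mean winter change and none higher, and the list's median was 0.04 in IBA and -0.94 in the mean. CYP1A2 (-2.62, adjusted p = 0.00218) and CYP2C19 (-2.80, adjusted p = 0.00467) were lower on average, and CYP2E1_like, at 594 to 1367 CPM in SA and 551 to 2213 in winter, did not pass (-0.06, adjusted p = 0.876).

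The remaining genes with the largest falls do not belong to a list. Mmp20, a matrix metalloproteinase best known from tooth enamel, had 177, 82.8 and 112 CPM in SA and 0.442 to 7.21 CPM with a median of 2.42 in winter, 45.4-fold lower (-5.51 ± 0.46 SE, adjusted p = 9.87e-06). Ip6k3, an inositol hexakisphosphate kinase, fell from 133, 56.9 and 159 to between 2.75 and 20.6 CPM and Marveld3, a tight junction protein, from 299, 175 and 53.4 to between 6.48 and 27.7 CPM. Tmem178b fell from 84.6, 164 and 351 to between 4.23 and 29.5 CPM and PDZRN3_like from 245, 403 and 257 to between 22.6 and 67.3 CPM. In all 5 the SA and winter libraries were fully apart, though Ip6k3 lost its call in every state without IBA replicate 3 and Tmem178b without IBA replicate 1. Thsd7b differs in kind, with 21.4, 93.5 and 1184 CPM in SA, so that its mean rests on SA replicate 3. It had 3.03 to 19.3 CPM in winter, and its call was lost without SA replicate 3 or any 1 IBA library. ACSM1_containing and its neighbour Acsm2b, both named for medium-chain acyl-CoA synthetases, fell from 241, 42.9 and 216 to between 5.68 and 63.5 CPM and from 455, 163 and 289 to between 58.7 and 123 CPM. They lie 22819 nt apart on the same strand of Itri9, and if they are near copies the split of reads between them is uncertain. The calls were lost without either LT library for the first and without IBA replicate 1 or 3 for the second.

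The genes that were higher in every winter state were fewer and moved less. Gpat3, a glycerol-3-phosphate acyltransferase of the first step of triglyceride synthesis, led the named genes (Itri14:4926254-5004367, minus strand). It had 72.5, 95.7 and 31.96 CPM in SA, 695, 457 and 533 in IBA, 1016, 429.9 and 653 in Ent, 196, 341 and 479 in ET and 382 and 411 in LT. The lowest winter liver was above the highest SA liver, and the winter states did not pass the test of a difference (adjusted p = 0.143). The log2 fold change was 3.08 in IBA, 3.4 in Ent, 2.36 in ET and 2.58 in LT, 7.24-fold higher on average (2.86 ± 0.40 SE, adjusted p = 0.000183). Dgat2, of the last step of triglyceride synthesis, is merged with Uvrag, and that unit moved the other way, from 2293, 1014 and 2140 CPM to between 544 and 933. The triglyceride and lipid droplet list, which does not hold Gpat3, had 14 units, of which none held in either direction, 4 were lower and 1 was higher in the mean winter change.

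Slc30a10, which exports manganese from cells, rose from 20.5, 37.4 and 27.9 CPM in SA to between 84.2 and 172 CPM, with a median of 103, in winter (1.93 ± 0.21 SE, adjusted p = 3.77e-05). Abhd2, a serine hydrolase that splits monoacylglycerol, had 899.7, 517 and 711 CPM in SA and 1538 to 2703 CPM with a median of 1967 in winter (1.47 ± 0.20 SE, adjusted p = 0.000139). Per kilobase, its level went from 6.03 in SA to 16.7 in winter. Prag1 rose from 16.4, 25.3 and 27.4 to between 41.5 and 92.3 CPM. Slc2a9, a urate transporter, rose from 67.0, 92.4 and 60.12 to between 114 and 292 CPM with 210.3, 292 and 220.2 CPM in the 3 IBA livers. Atl2, a GTPase that shapes the endoplasmic reticulum, rose from 148, 186 and 126 to between 315 and 487 CPM, and Stxbp6, a regulator of membrane fusion, from 182, 161 and 132 to between 308 and 499 CPM. Smim19, a small membrane protein, rose from 28.9, 13.8 and 17.4 to between 40.2 and 71.5 CPM. SA and winter libraries did not overlap in any of these 7 genes, and all except Smim19 kept their call without any 1 of the 14 libraries. Smim19 lost it without SA replicate 2 or 3 or any 1 IBA library.

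A pair of transcription factor genes rose in every state, by amounts that differed among the winter states. Atf5, a bZIP factor of the integrated and mitochondrial stress responses, had 136, 109 and 88.2 CPM in SA, 142, 232 and 268 in IBA, 713, 738 and 582 in Ent, 666, 898 and 842 in ET and 593 and 625 in LT. The lowest IBA liver was barely above the highest SA liver, and Ent, ET and LT were all well above IBA. The log2 fold change was 0.95 in IBA, 2.61 in Ent, 2.85 in ET and 2.46 in LT and differed among the winter states (adjusted p = 0.000167). Etv5, an ETS factor, had 12.8, 14.8 and 8.2 CPM in SA, 25.6, 27.8 and 27.9 in IBA, 37.5, 43.7 and 44.5 in Ent, 47.9, 88.6 and 76.8 in ET and 74.4 and 89.4 in LT, with a log2 fold change of 1.21 in IBA, 1.84 in Ent, 2.60 in ET and 2.80 in LT (adjusted p among winter states = 0.000677). Without SA replicate 3 or IBA replicate 3 neither was called in all 4 states, and Atf5 also lost its call without SA replicate 2 or IBA replicate 2.

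Hadh, the hydroxyacyl-CoA dehydrogenase of fatty acid oxidation, rose from 237, 288 and 282 CPM in SA to between 364 and 542 CPM, with a median of 473, in winter, with log2 fold changes of 0.59 in IBA, 0.76 in Ent, 0.78 in ET and 0.95 in LT (0.77 ± 0.12 SE, adjusted p = 0.000395). It was the 1 unit of 19 on the list of ketogenesis and fatty acid oxidation that held, with 8 higher and 2 lower in the mean winter change and a list median of 0.30. Hadha (0.58, adjusted p = 0.00471) and Hadhb (0.69, adjusted p = 0.00413), the subunits of the trifunctional protein, and Acat1 (0.96, adjusted p = 0.00733) rose on average, and in IBA they did not pass (adjusted p = 0.111, 0.103 and 0.371). Ears2, which charges the mitochondrial glutamate tRNA, rose from 28.4, 49.8 and 26.5 to between 58.5 and 79.4 CPM, and the ribosomal protein gene Mrpl48 from 33.7, 25.9 and 30.3 to between 44.0 and 62.9 CPM. PHYH_containing, named for the peroxisomal phytanoyl-CoA hydroxylase, rose from 56.4, 38.2 and 42.3 CPM in SA to between 46.4 and 152 in winter. Calls of Hadh, Ears2 and Mrpl48 in every state were lost without any 1 IBA library or SA replicate 3, those of Hadh and Ears2 also without SA replicate 1 and that of Mrpl48 without SA replicate 2. Ears2 was the least stable of the 3, and held in 3 of the 14 fits that each left out 1 library. The call of PHYH_containing was lost without SA replicate 2 or 3 or ET replicate 2 or 3.

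Across the 16 gene lists, 20 of 343 distinct units (5.83%) held, 1 higher and 19 lower, against 2.25% of all single-gene units. Lists were described by counts and medians, with no test of the list. In the mean winter change, 55 of these units were higher and 138 lower, against 21% and 24.3% of all single-gene units. The median log2 change from SA to the mean of winter was -1.38 for fatty acid synthesis, -0.99 for cholesterol synthesis and uptake, -0.95 for urea and amino acid genes and -0.94 for drug metabolism, with a median of all single-gene units of -0.01. The median of fatty acid synthesis was -1.70 in IBA, -1.36 in Ent, -1.82 in ET and -1.88 in LT. Drug metabolism (0.04), bile acid genes (0.04), plasma proteins (0.17) and apolipoproteins (0.23) had IBA medians above 0 and LT medians of -1.35, -0.94, -0.87 and -1.30. The 7 lists without a unit that held had units called in the mean winter change, as had 45.2% of all single-gene units. Plasma proteins had 15 lower and 1 higher of 39, apolipoproteins 3 lower of 6, clock genes 3 higher and 2 lower of 10, heat shock genes and chaperones 4 higher and 3 lower of 23, and hepatocyte transcription factors 5 higher and 8 lower of 20. Splicing factors and cold-shock RNA-binding proteins had 22 higher and 2 lower of 38. Tra2b, a splicing regulator, was at -0.11 in IBA and 2.06 in ET, and Hnrnpa1 at -0.11 and 2.05, so that IBA had no part in their mean rise.

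**Figure D5:**
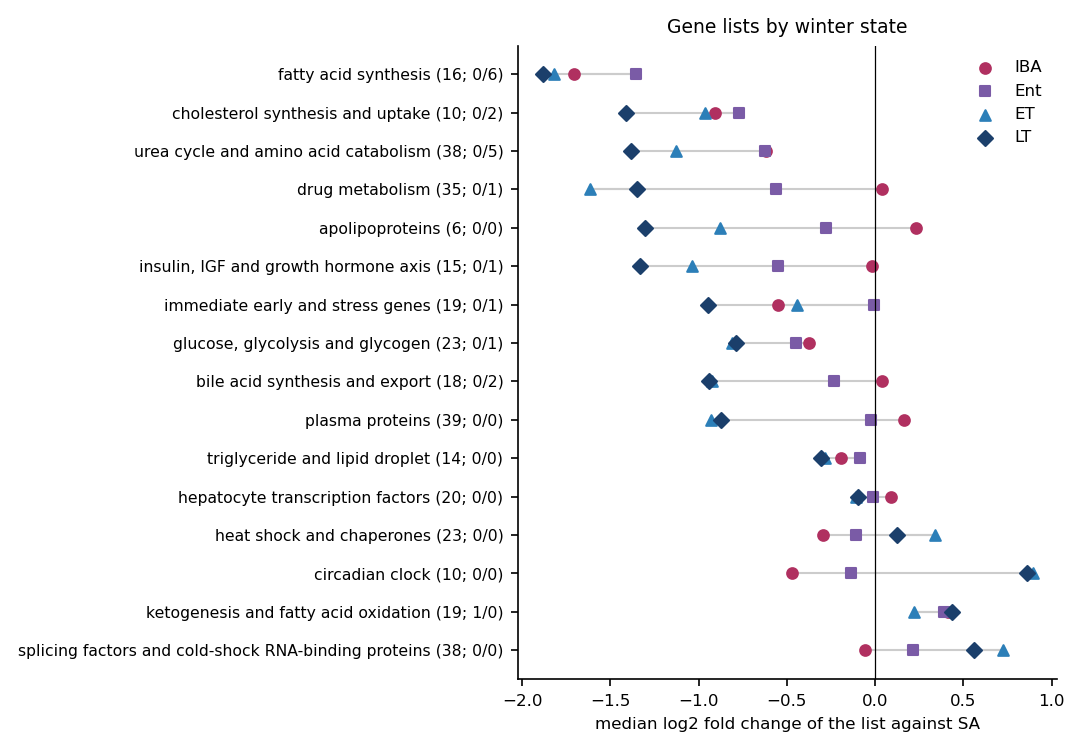
Median log2 fold change against SA of each of the 16 gene lists in IBA, Ent, ET and LT. In parentheses stand the number of units in the list and, of these, the number higher and lower in all 4 states. For fatty acid synthesis the 4 medians lie between -1.88 and -1.36, and for drug metabolism between -1.61 and 0.04.

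Several genes of seasonal interest in liver had no common winter change. Igfbp1, an IGF-binding protein raised in fasting, had 2354, 226 and 1150 CPM in SA, 3222, 1477 and 1837 in IBA and 59.6, 35.5 and 160.4 in ET. It fell on average (-2.01, adjusted p = 0.00738) with 0.81 in IBA and -4.06 in LT. Serpina7, the thyroxine-binding globulin, had 1.73 in IBA and -2.15 in LT, and did not pass on average (-0.74, adjusted p = 0.195). A2m, a protease inhibitor of plasma, likewise had 1.84 in IBA and -1.28 in ET, with a mean of -0.14, adjusted p = 0.817. Igf1 had 79.3, 1012 and 109.8 CPM in SA, and its mean of -1.06 ± 0.55 SE, adjusted p = 0.14 rested on SA replicate 2: without it the value was 1.02 (adjusted p = 0.0378). Hsf1, the heat shock factor, had 75.8 to 135 CPM in SA and 73.8 to 154 in winter (0.20, adjusted p = 0.433). Cpt1a, Nr1i3, Per1, Dbp, Alb and Cirbp are merged with other genes, and Arntl and Rbm3 were not analysed here. Serpina7 is also named in a merged unit besides its own, and the values of that merged unit are not given here.

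Units without a settled gene name also held. G15365, an unannotated unit of 4630 nt (Itri19:16068115-16072744, plus strand), had the largest weakest change of the higher single-gene units. It had 0.482, 1.65 and 0.832 CPM in SA, 9.09, 26.1 and 26.3 in IBA, 41.7, 52.3 and 80.2 in Ent, 1.77, 8.64 and 9.73 in ET and 2.12 and 12.4 in LT. The lowest winter library was only just above the highest SA library, and its call was lost without SA replicate 1, SA replicate 3, ET replicate 3 or LT replicate 3. Of the 1619 merged units, 29 (1.79%) held, 9 higher (0.556%) and 20 lower (1.24%). Among the lower, Etnppl:G10970, with a phosphoethanolamine lyase gene of liver, fell from 360.1, 93.5 and 586 to between 11.01 and 65.2 CPM. Among the higher, INHBA:Inhba, a subunit of activin, rose from 50.1, 53.4 and 34.7 to between 49.9 and 189 CPM. Counts of a merged unit cannot be divided among its genes.

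Some of the units that held were neighbours within 200 kb. Beside the SCD cluster, Lhpp and Oat lie 29608 nt apart on opposite strands of Itri1 and both fell, Lhpp from 268, 383 and 214 to between 33.3 and 126 CPM. On Itri7 the unannotated G34581 and G34589 lie 2203 nt apart on the minus strand, and both fell. On Itri4, Soat2 rose while Krt18, 118449 nt away on the same strand, fell from 62.7, 102 and 58.6 to between 26.8 and 42.6 CPM. Without IBA replicate 1 or 3 the calls of Lhpp, G34589 and Krt18 in every state were lost, those of G34589 and Krt18 also without IBA replicate 2, and that of Krt18 without SA replicate 2.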

How the data were processed

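GRO-seq libraries of 14 livers were analysed (SA, IBA, Ent and ET n = 3, LT n = 2). Per the labels and methods, the authors trimmed reads with cutadapt, aligned them with BWA to HiC_Itri_2, and counted them with featureCounts over gene bodies redefined with fstitch, without their first 500 nt and with overlapping genes merged. Versions are not given in the sources used here. The deposited values are raw counts for 6324 units, at 3713883 to 8884763 counts per library. Of these units, 4705 carry a single gene name (4081 matched to a symbol), and the merged ones hold 35.7% of the counts.

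All units were fitted together with edgeR 4.0.16 (R 4.3.3, limma 3.58.1), with TMM normalization, the quasi-likelihood test, a term for each state, no low-count filter and Benjamini-Hochberg adjustment over all 6324 units, at an adjusted p of 0.05. The mean winter change is the mean of IBA, Ent, ET and LT minus SA, and a 3-degree-of-freedom F test compared the winter states. CPM were computed from the TMM-scaled library size. Standard errors are the log2 fold change divided by the root of its F. The code was tested on simulated data. DESeq2 1.42.0, limma-voom, other scalings, filters, thresholds, a replicate block, a term for the season of collection and the removal of each library were alternatives.

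Genes were named by rule: the 12 higher and 12 lower units with a gene symbol and the largest weakest change among those that held, up to 4 that held per list, a preset group of liver genes, and the largest weakest change in each direction. Others that held and the list members Hmgcs1, Sc5d, Acacb, Fads2, Thrsp, Gys2, Tat, Ass1, Hadha, Hadhb, Acat1, CYP1A2, CYP2C19, Slc10a1, Tra2b and Hnrnpa1 were named after their values were seen. The comparison and the lists were chosen with earlier results of these data known. List symbols were matched to the first part of a unit's name, ahead of suffixes such as _like. Some genes, though counted, are not reported by name here. The separate animals of a state are its replicates.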

Additional observations from a re-analysis of the deposited data

Results flagged for a closer look

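Of the 49 genes named by rule and reported, 21 had a change from summer that differed among the 4 winter states (edgeR F test, adjusted p of 0.05 or less), against 54.5% of all single-gene units. The test compares the 4 states at once, and the order in which states are given below was not tested. No group had the 4 samples needed to look for a library that stood apart.

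Among genes lower in every winter state, the fall was larger in ET and LT than in IBA and Ent for CYP7A1 (-3.09 in IBA and -7.97 in ET, adjusted p = 0.00557), CYP8B1 (-2.23 in Ent and -6.13 in ET, adjusted p = 0.00101), Kynu (-1.08 in IBA and -2.41 in LT, adjusted p = 0.00101), Insig1 (-1.67 in Ent and -3.15 in LT, adjusted p = 0.0457), Ppp1r3b (-1.17 in Ent and -2.23 in LT, adjusted p = 0.0115) and PDZRN3_like (-2.48 in IBA and -3.40 in ET, adjusted p = 0.0244). The fall was larger in IBA and Ent than in ET and LT for Oat (-4.38 in IBA and -2.79 in ET, adjusted p = 0.015) and Scap (-1.27 in Ent and -0.52 in LT, adjusted p = 0.0106), and in IBA than in the other states for SCD_containing_gene16210 (-3.25 in IBA and -1.75 in LT, adjusted p = 0.0225).

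Among genes higher in every winter state, the rise was smaller in IBA than in the other states for Atf5 (0.95 in IBA and 2.85 in ET, adjusted p = 0.000167) and Etv5 (1.21 in IBA and 2.80 in LT, adjusted p = 0.000677), and larger in IBA and Ent than in ET and LT for Soat2 (2.27 in Ent and 1.24 in LT, adjusted p = 0.0196) and the unannotated G15365 (5.92 in Ent and 2.79 in ET, adjusted p = 0.00286).

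Among genes whose change did not hold, the log2 fold change was above 0 in IBA and below 0 in LT for G6pc (adjusted p = 0.000183), Pck1 (0.56 and -2.59, adjusted p = 0.000184), Serpina7 (adjusted p = 0.000412), Igfbp1 (adjusted p = 0.0006) and A2m (adjusted p = 0.00132). Fasn was lowest in IBA (adjusted p = 0.00325), Srebf1 went from -0.55 in IBA to 1.22 in LT (adjusted p = 0.043), and CYP2E1_like was at 0.18 in IBA, 0.92 in Ent, -0.33 in ET and -1.0 in LT (adjusted p = 0.00408).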

How the results depend on the processing

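The count of 106 units that held in all 4 winter states was 101 to 112 with limma-voom, adjusted deviances, DESeq2 size factors, upper-quartile normalization, at least 10 counts in every library or edgeR's own low-count filter, of which 94 to 106 were shared. DESeq2 called 542 units in IBA and 180 (51 higher and 129 lower) in all 4 states, among them all 106. An adjusted p of 0.001 left 1 unit in IBA, 42 in Ent, 1048 in ET, 759 in LT, 544 in the mean winter change, 944 that differed among winter states and 0 in all 4 states or in the lists. With a 2-fold minimum, 149 remained in IBA, 400 in Ent, 1248 in ET, 1248 in LT, 553 in the mean winter change and 60 in all 4 states. Tested as 1 group, the 11 winter libraries gave 278 units (86 higher and 192 lower). The cause of these moves was not tested, other than fewer units passing a stricter threshold.

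Without 1 library at a time, 94 to 321 units were called in IBA, 660 to 1240 in Ent, 2255 to 2531 in ET, 1595 to 2389 in LT, 1626 to 2176 in the mean winter change, 46 to 134 in all 4 states and 12 to 25 in the lists, and 2168 to 2737 differed among winter states. The low values came without IBA replicate 3 (IBA 94, all 4 states 46), IBA replicate 1 (all 4 states 60, lists 12) or Ent replicate 3 (Ent 660). Of the 106, 8 higher and 24 lower units held without any 1 library, among them SCD_containing_gene16206, Acly, Oat, Alas1, Nr4a1, Gpat3 and Slc30a10. Without SA replicate 3, 18 higher and 68 lower held. Scaled to uniquely mapped reads, the lists had 4 higher and 18 lower, and upper-quartile normalization gave 750 higher and 466 lower in Ent.

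With the season of collection as a term, which leaves out ET, 96 held (33 higher and 63 lower, 76 shared). Without ET and with no such term, an alternative chosen after seeing the data, 123 held (95 shared).

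Replicate numbers did not pair the animals: deviations of same-numbered samples correlated at -0.27 to 0.26 over 26 pairs. With the number as a replicate block, 96 units held (24 higher and 72 lower, 89 shared).

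Of 4583 recomputed values of 170 named genes, 4483 kept their direction and side of the threshold, 81 lost the call, 6 gained it, and 13 turned sign, none of these in a gene called at first. The sign turned for CYP2E1_like with limma-voom (0.046), uniquely mapped reads (0.10), the season term (0.026) and without ET (0.050), with -0.36 to 0.12 without 1 library at a time. It turned for A2m with uniquely mapped reads (0.015), the season term (0.44) and without ET (0.26), with -0.46 to 0.59 without 1 library at a time, the highest without SA replicate 2. It turned for Serpina7 without SA replicate 1 (-1.13 to 0.35 over the libraries left out) and for Igf1 without SA replicate 2 (-1.54 to 1.02). Of 6324 units, 32 had fewer than 10 counts in some library. With at least 10 counts in every library, 101 units held in place of 106, and 16 list units in place of 20. Some of the largest falls rest on winter values near 0, with 0 CPM in ET replicate 2 for both CYP7A1 and CYP1A1_like. What part depth had in the other values was not tested. Groups of 2 or 3 animals also limit the precision of each value.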
